A study of Arabidopsis thaliana with 24 samples.

Results

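Arabinogalactan proteins (AGPs) are cell-surface proteoglycans of plants, and 39 genes that encode them in Arabidopsis thaliana were followed through 4 h of low oxygen. The list held the fasciclin-like genes FLA1 to FLA18 and 21 other AGP genes, chosen by family name and locus identifier. These 21 were 9 classical, 9 peptide, 2 lysine-rich and 1 chimeric. Results from these libraries were known when the family was picked, and no record says which measured values weighed in, so its response to oxygen is given as a description. Of the 39 genes, 38 were among the 23929 genes of the deposited tables and 36 had enough reads to be tested. FLA14 had no row in those tables and is counted only where sequence or position is described. FLA3 and FLA5 had too few reads for a test.

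An AGP carries a short protein backbone rich in proline, alanine, serine and threonine. Prolines are hydroxylated in the endoplasmic reticulum and then receive branched galactan chains, decorated with arabinose, glucuronic acid and fucose, that make up most of the mass. Many AGPs are held to the outer face of the plasma membrane by a glycosylphosphatidylinositol (GPI) lipid anchor. Classical AGPs are almost wholly such a backbone, AG peptides keep only a very short one, fasciclin-like AGPs add fasciclin domains known for adhesion, and AGP31 joins the backbone to a cysteine-rich domain that binds wall polysaccharides. In seedlings the family is known from growing walls, root epidermis and vascular tissue.

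RNA came from whole seedlings of the wild type Col-0 and of mutants labelled vq1, vq10 and vq1vq10, named after genes for proteins with a VQ motif. Per the labels they grew for 14 days on MS medium with 1% sucrose in long days at 21% oxygen. On day 15 they spent 4 h in dim light either at 1% oxygen (hypoxia) or still at 21% (normoxia). Each of the 8 groups had 3 independent biological replicates, 24 libraries in all. The labels do not say what kind of alleles vq1 and vq10 are or how many seedlings made a library.

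Library totals were 21150032 to 22645177 reads. The 5 hypoxia marker genes checked (ADH1, PDC1, SUS4, LBD41 and HB1) summed to 19.7 to 77.1 CPM (reads scaled to library size) in the 12 normoxic libraries and to 1647 to 2523 in the 12 hypoxic ones. VQ10 was higher than in Col in lines labelled vq10, at 1.38 to 2.46 CPM in the normoxic vq10 and vq1vq10 libraries against 0.17 to 0.55 in normoxic Col. VQ1 was not called different from Col in the lines labelled vq1 (log2 difference under normoxia -0.22 in vq1 and -0.42 in vq1vq10), so vq1 below names the libraries that carry that label. In 4 libraries the chi-square per degree of freedom against either other replicate was at least 1.5 times that between those others: Col hypoxia replicate 3, vq10 hypoxia replicate 2, vq10 normoxia replicate 1 and vq1vq10 normoxia replicate 1. Counts over all 36 tested genes of those called, of those at an unadjusted p under 0.05 and of those above 0 in a response difference are given with and without them. Counts by class of calls, and of members whose libraries did not overlap, are given only with them.

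Averaged over the 4 genotypes, hypoxia lowered 31 of the 36 tested AGP and FLA genes at an adjusted p under 0.05 (edgeR, Benjamini-Hochberg over 20110 genes) and raised 0 by edgeR. The same test called 33.1% of all genes lower and 31.7% higher, with a median log2 change of -0.01 over all genes and -0.53 over the 36. Lower genes made up 14 of 15 tested fasciclin-like genes, 7 of 9 classical AGPs, 8 of 9 AG peptides, 1 of 2 lysine-rich AGPs and AGP31. The count was 31 or 32 when any single library was left out, and 31 (32.1% of all genes lower) without the 4 that stand apart. Since RNA came from whole seedlings, fewer cells of a type and less RNA per cell cannot be told apart. In this series 5 members fell by more than 2-fold: AGP22, FLA6, AGP3, AGP13 and AGP7.

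**Figure D1:**
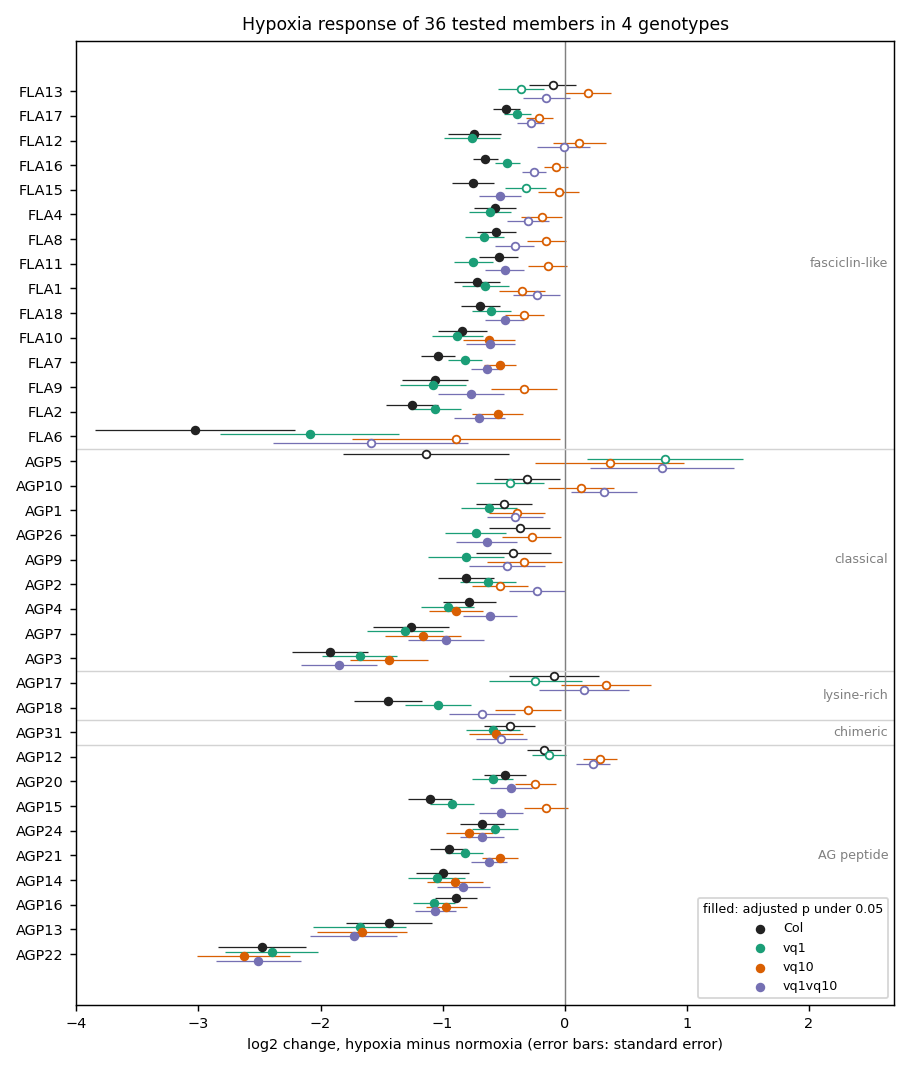
Log2 change from normoxia to hypoxia (x axis) of the 36 tested members (y axis, by class), with a point per genotype, its standard error as a bar, and filled points where the adjusted p was under 0.05. AGP22, at the foot, lies between -2.63 and -2.40 in the 4 genotypes, while AGP12 lies between -0.17 and 0.29.

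AG peptides, the shortest members, held both the largest fall of the 36 and a gene without a call. The coding sequences of 5 genes are shown, spliced and read from TAIR10.1 by position: AGP22, AGP13, AGP14 and AGP16, which fell most in the class, and AGP12, which did not pass the test. Capitals mark every proline codon of the coding sequence, and which of these prolines are hydroxylated or glycosylated is not shown. The coordinates span the coding part with any intron.
AGP22 (chr5:21603715-21604007, plus strand): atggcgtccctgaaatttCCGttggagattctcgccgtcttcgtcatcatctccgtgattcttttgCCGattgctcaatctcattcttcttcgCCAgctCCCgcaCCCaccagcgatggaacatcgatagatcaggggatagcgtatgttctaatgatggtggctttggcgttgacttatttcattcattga
AGP13 (chr4:13317235-13317414, minus strand): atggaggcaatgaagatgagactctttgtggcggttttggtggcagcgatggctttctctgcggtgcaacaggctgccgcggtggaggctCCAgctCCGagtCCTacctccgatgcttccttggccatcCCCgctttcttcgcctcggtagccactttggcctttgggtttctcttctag
AGP14 (chr5:22893243-22893425, plus strand): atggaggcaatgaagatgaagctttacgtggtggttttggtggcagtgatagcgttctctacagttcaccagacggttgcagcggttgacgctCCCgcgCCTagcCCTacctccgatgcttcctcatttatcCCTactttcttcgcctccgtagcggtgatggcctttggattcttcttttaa
AGP16 (chr2:19018730-19019108, minus strand): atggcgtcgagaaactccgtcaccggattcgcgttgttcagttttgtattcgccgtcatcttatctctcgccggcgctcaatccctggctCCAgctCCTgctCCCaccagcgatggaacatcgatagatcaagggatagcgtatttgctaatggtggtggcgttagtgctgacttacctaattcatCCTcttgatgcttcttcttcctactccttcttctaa
AGP12 (chr3:4409087-4409269, plus strand): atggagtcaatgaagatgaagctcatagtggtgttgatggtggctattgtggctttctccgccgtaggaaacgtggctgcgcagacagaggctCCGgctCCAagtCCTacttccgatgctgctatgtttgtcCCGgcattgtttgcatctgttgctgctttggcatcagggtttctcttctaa
AGP22 holds 5 proline codons and each of the others 4, and in all of them 3 stand at every other codon near the middle. AGP13 and AGP14 shared 77.0% of aligned coding bases, AGP12 and AGP13 72.7%, AGP16 and AGP22 61.7%, and AGP16 and AGP20 84.4%. The longest stretch shared letter for letter between any 2 members' transcripts was 53 bases, between FLA8 and FLA10, and among these peptides 29 bases, between AGP16 and AGP22. Whether the authors' counting split reads between them is not given in the sources used here. The deposited counts of the 38 members with values were whole numbers in all 24 libraries.

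AGP22 (AT5G53250, chromosome 5, 21603569 to 21604414) is an AG peptide predicted to carry a GPI anchor. Its level was 8.62, 11 and 10.1 CPM in the normoxic and 1.57, 1.02 and 2.69 CPM in the hypoxic Col libraries. In vq1 it was 7.81, 7.51 and 7.71 against 0.36, 1.77 and 2.2 CPM. The highest hypoxic library of each genotype lay below the lowest normoxic one, here and in the lines that carry vq10. AGP22 was at 11.5, 7.84 and 7.13 against 0.79, 1.65 and 1.82 CPM in vq10, and at 13.1, 9.06 and 10.9 against 1.12, 2.15 and 2.54 CPM in vq1vq10. Over the 4 genotypes it fell by 2.5 ± 0.18 (log2 change ± standard error, 12 libraries per condition). By genotype the log2 change was -2.48 ± 0.36, -2.4 ± 0.38, -2.63 ± 0.38 and -2.51 ± 0.35 in Col, vq1, vq10 and vq1vq10, which differ by less than their errors.

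AGP13 (AT4G26320, chromosome 4, 13317053 to 13317640) is a low-expressed peptide. In Col it was at 4.12, 5.26 and 4.15 CPM under normoxia and 0.94, 0.96 and 3.01 under hypoxia, where the third replicate stood well above the other two. In vq1 AGP13 was at 3.32, 4.12 and 3.29 against 0.87, 0.96 and 1.5 CPM. The vq10 libraries had 5.45, 3.26 and 2.25 against 0.63, 1.51 and 1.3 CPM, and those of vq1vq10 4.51, 4.09 and 5.33 against 1.52, 1.42 and 1.25. Normoxic and hypoxic libraries did not overlap in any of the genotypes, and AGP13 fell by 1.63 ± 0.18. Without Col hypoxia replicate 3 its change in Col went from -1.44 to -2.25.

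AGP14 (AT5G56540, chromosome 5, 22893151 to 22893651), its closest relative in sequence, is a peptide whose loss is reported to lengthen root hairs. It was at 19.3, 20.9 and 19.9 CPM in normoxic Col and 8.96, 7.82 and 13.2 in hypoxic Col. The vq1 values were 17.6, 19.6 and 15.9 against 5.75, 8.19 and 11.7 CPM. AGP14 separated the conditions in each genotype, with vq10 at 18, 12 and 12.4 against 5.2, 7.59 and 9.89 CPM and vq1vq10 at 18.9, 18.1 and 21.8 against 12.3, 9.2 and 11.6. It fell by 0.94 ± 0.11.

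AGP16 (AT2G46330, chromosome 2, 19018264 to 19019364) was the most abundant peptide per length, at a mean of 179 TPM (reads scaled to gene length and library size) over all libraries. It was at 121, 137 and 164 CPM in normoxic and 70.9, 101 and 56.2 in hypoxic Col, and at 141, 162 and 130 against 57.6, 82.9 and 65.7 CPM in vq1. In vq10 AGP16 had 133, 155 and 132 against 63.7, 76.7 and 73.8 CPM, and in vq1vq10 118, 144 and 152 against 64.9, 69.4 and 64.7. Again no hypoxic library reached a normoxic one of its genotype. AGP16 fell by 1.00 ± 0.08, and its changes in the genotypes were all between -1.07 and -0.89.

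AGP12 (AT3G13520, chromosome 3, 4408925 to 4409734) stood at 37, 41.8 and 39.6 CPM in normoxic Col and 32.9, 39.6 and 32.6 in hypoxic Col. In vq10 it was at 39.5, 34.4 and 35.2 against 36.6, 57.7 and 39 CPM, the highest value being replicate 2, which stands apart. The groups overlapped in both, and AGP12's mean change was 0.05 ± 0.07. In vq10 it was called higher by edgeR without hypoxia replicate 1 (0.41, adjusted p = 0.036, against 0.29 with all libraries). The remaining peptides all fell: AGP21, known from root hair fate, by 0.73 ± 0.08, AGP24 by 0.68 ± 0.09, AGP15 by 0.67 ± 0.09 and AGP20 by 0.44 ± 0.08. The difference in response between one peptide and another was not tested.

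**Figure D2:**
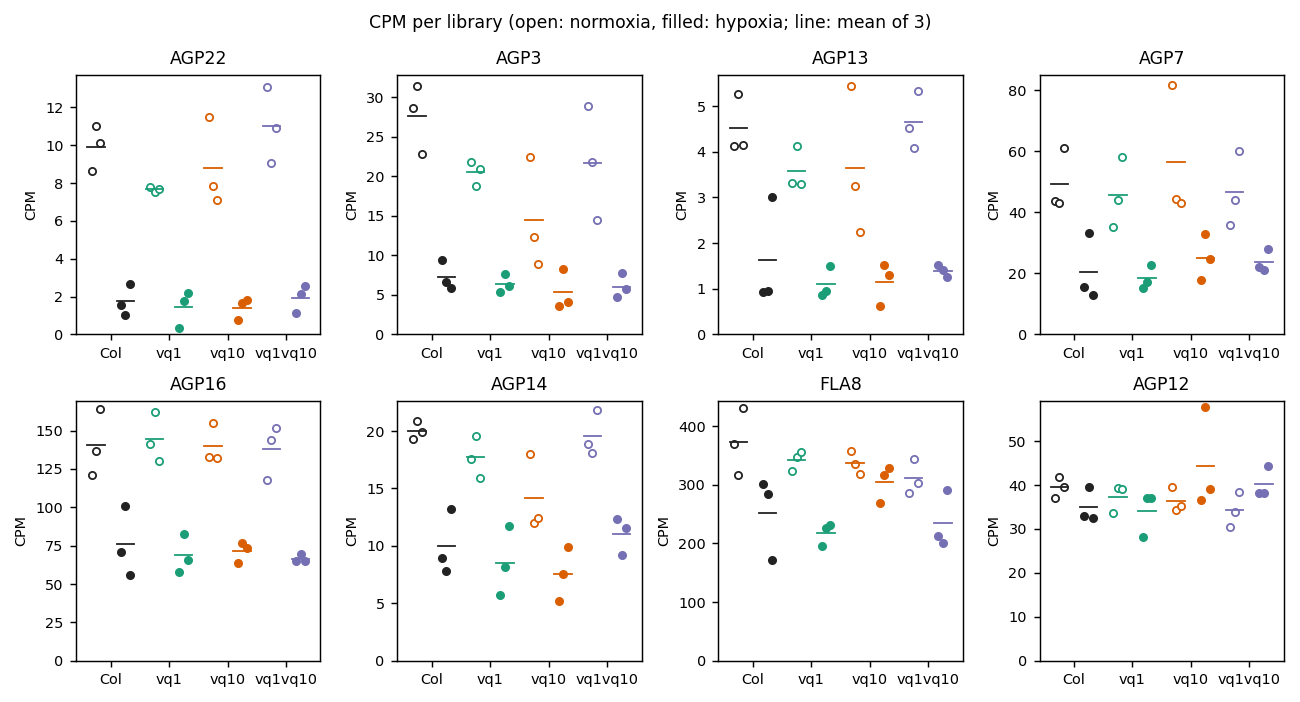
CPM (y axis, from 0) in each of the 24 libraries for 8 members, by genotype (x axis), with open points for normoxia, filled points for hypoxia and a line at the mean of 3. For AGP22 no filled point exceeds 2.69 CPM and no open point lies under 7.13, while the points of AGP12 overlap.

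Among the classical AGPs, which are nearly all glycosylated backbone, AGP3 fell most, by 1.72 ± 0.16. AGP3 (AT4G40090, chromosome 4, 18580827 to 18581696) was at 28.6, 31.5 and 22.8 CPM in normoxic and 9.38, 6.6 and 5.92 in hypoxic Col, and at 21.8, 18.8 and 20.9 against 5.39, 7.63 and 6.19 CPM in vq1. In vq10 the normoxic libraries themselves spread from 22.4 in replicate 1 to 12.3 and 8.87, against 3.63, 8.25 and 4.06 CPM under hypoxia. The vq1vq10 libraries had 28.9, 21.8 and 14.5 against 4.69, 7.73 and 5.72 CPM. Conditions did not overlap within a genotype, although the lowest normoxic vq10 library, 8.87 CPM, lay under the highest hypoxic Col library.

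AGP7 (AT5G65390, chromosome 5, 26128581 to 26129547) is another classical AGP. It was at 43.7, 43.1 and 61 CPM in normoxic and 15.6, 33.3 and 12.8 in hypoxic Col, and at 35.3, 43.9 and 58.2 against 15.2, 17.2 and 22.9 CPM in vq1. In vq10 AGP7 had 81.7, 44.4 and 42.9 against 18, 32.8 and 24.7 CPM, and in vq1vq10 35.8, 44 and 60.2 against 22.1, 21.2 and 28. No genotype's conditions overlapped, and AGP7 fell by 1.18 ± 0.15 on average. Its call in vq10 (adjusted p = 0.0049, edgeR) ended without vq10 normoxia replicate 1 (adjusted p = 0.051). In vq1vq10 the adjusted p of 0.017 became 0.056 and 0.06 without hypoxia replicates 1 and 2 and 0.091 without normoxia replicate 3.

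Of the other classical genes, AGP4, also known as JAGGER from its part in blocking extra pollen tubes, fell by 0.81 ± 0.11, AGP2 by 0.55 ± 0.11, AGP9 by 0.51 ± 0.15, AGP26 by 0.5 ± 0.12 and AGP1 by 0.48 ± 0.11. AGP9 was the most abundant of them, with a mean of 170 TPM. Its CPM were 183, 164 and 194 in normoxic Col but 138, 214 and 54 in hypoxic Col, so that these groups overlapped. Hypoxic AGP9 was at 88.3, 95.3 and 83.1 CPM in vq1, all below the normoxic 142, 157 and 170. In vq10 AGP9 was at 243, 147 and 127 against 110, 150 and 150 CPM, and in vq1vq10 at 118, 155 and 179 against 101, 83.7 and 142. AGP10 (-0.08 ± 0.14) and AGP5 (0.21 ± 0.32) were not called. AGP5 had few reads, 36 in hypoxic Col and 150 in hypoxic vq1vq10, with libraries of 0.46 to 4.39 CPM.

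The lysine-rich AGPs have a short basic stretch within the backbone, and the pair differed in their calls. AGP18, known from the female gametophyte, fell by 0.87 ± 0.14, and AGP17, first found through resistance to Agrobacterium, was at 0.04 ± 0.19. AGP18 was at 39.7, 47.5 and 35.2 CPM in normoxic and 12.8, 19.1 and 12.9 in hypoxic Col, but at 45.7, 27 and 28.8 against 16.1, 40.1 and 26.1 in vq10, where the conditions overlapped. AGP17 overlapped in Col, with 20.1, 24.2 and 24.6 CPM against 13.5, 37.7 and 13.8.

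AGP31 (AT1G28290, chromosome 1, 9889101 to 9891015), the chimeric member that binds pectic polysaccharides, was second in level at 200 TPM. Its CPM were 206, 210 and 244 in normoxic and 161, 230 and 94.4 in hypoxic Col, 145, 195 and 211 against 117, 129 and 119 in vq1, 247, 188 and 176 against 134, 128 and 154 in vq10, and 160, 226 and 251 against 145, 136 and 162 in vq1vq10. It fell by 0.53 ± 0.11 on average. Conditions overlapped in Col and vq1vq10 and not in vq1 and vq10.

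Among the fasciclin-like genes 14 of the 15 tested had log2 changes between -0.89 and -0.11. FLA2 fell by 0.89 ± 0.1, FLA9 by 0.81 ± 0.13, FLA7 by 0.76 ± 0.07 and FLA10 by 0.74 ± 0.1. FLA4, known as SOS5 from the salt-sensitive root growth of its mutant, fell by 0.42 ± 0.08. FLA11 and FLA12, which act in secondary walls of the stem, fell by 0.48 ± 0.08 and 0.35 ± 0.11, and FLA13 was at -0.11 ± 0.1. Markers of the secondary wall moved both ways, with 3 of 11 higher and 3 lower, beside 31.7% and 33.1% of all genes. Their summed level was 108 to 172 CPM under normoxia and 110 to 137 under hypoxia.

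FLA8 (AT2G45470, chromosome 2, 18742477 to 18744322) had the highest level of the family, 237 TPM, above 97.9% of all genes. It was at 370, 317 and 430 CPM in normoxic and 302, 284 and 171 in hypoxic Col, and at 324, 348 and 355 against 195, 226 and 231 in vq1. In vq10 FLA8 had 358, 336 and 318 against 269, 316 and 328 CPM, where the conditions overlapped, and in vq1vq10 286, 344 and 303 against 213, 200 and 291, which overlapped too. Its mean fall was 0.44 ± 0.08.

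FLA9 (AT1G03870, chromosome 1, 982381 to 983544) followed at 195 TPM. In Col it had 199, 204 and 196 CPM under normoxia and 71, 127 and 89.7 under hypoxia, and in vq1 169, 195 and 210 against 51.4, 97.7 and 122. In vq10 FLA9 was at 230, 161 and 154 against 89.7, 215 and 130 CPM, and in vq1vq10 at 190, 185 and 162 against 91, 102 and 122. Conditions overlapped in vq10, through replicate 2 under hypoxia, and in no other genotype. Without that library the change of FLA9 in vq10 went from -0.33 (adjusted p = 0.36, edgeR) to -0.74 (adjusted p = 0.036).

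FLA6 lies outside the rule by which members were picked for full values, because of its low level (0.80 TPM), and is named after its values were seen. Its mean log2 change was -1.9 ± 0.4, resting on 81, 83, 29 and 43 normoxic reads against 8, 16, 13 and 13 hypoxic reads in Col, vq1, vq10 and vq1vq10. In normoxic vq10 FLA6 was at 1.01, 0.13 and 0.08 CPM, so its value there hangs on replicate 1. Without that library the change in vq10, which was not called, went from -0.89 to 0.99. FLA3 and FLA5, at 0.07 and 0.23 TPM, were close to undetected, and FLA3 is known from pollen. Pollen markers were likewise near 0, with AGP6 and AGP11 summing to 0.14 to 0.81 CPM per library.

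Per length, 35 of the 38 members had a mean of at least 1 TPM. The 5 highest were FLA8, AGP31, FLA9, AGP16 and AGP9. In the order of levels all 37 pairs of neighbours overlapped over the libraries. Summed over the 38 genes, the deposited TPM were 3486 ± 192 (SD, n = 3) in normoxic and 1765 ± 301 in hypoxic Col, which is 0.349% and 0.176% of all transcripts on this scale. The sums were 3016 ± 320 against 1551 ± 168 in vq1, 3195 ± 533 against 2066 ± 480 in vq10 and 3081 ± 186 against 1969 ± 156 in vq1vq10. The lowest normoxic sum exceeded the highest hypoxic sum in each genotype, the closest being vq10 with 2870 against 2588.

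TPM lacks the TMM correction for composition, which multiplied library sizes by 1.03 to 1.108 in normoxic and by 0.876 to 1.018 in hypoxic libraries. On the TPM scale the median log2 ratio of hypoxia to normoxia was -0.19 over the 18171 genes with at least 1 TPM and -0.72 over the 36 members. The sign flipped between scales for AGP12 (-0.13 by TPM) and AGP17 (-0.13 by TPM), both of which were not called.

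**Figure D3:**
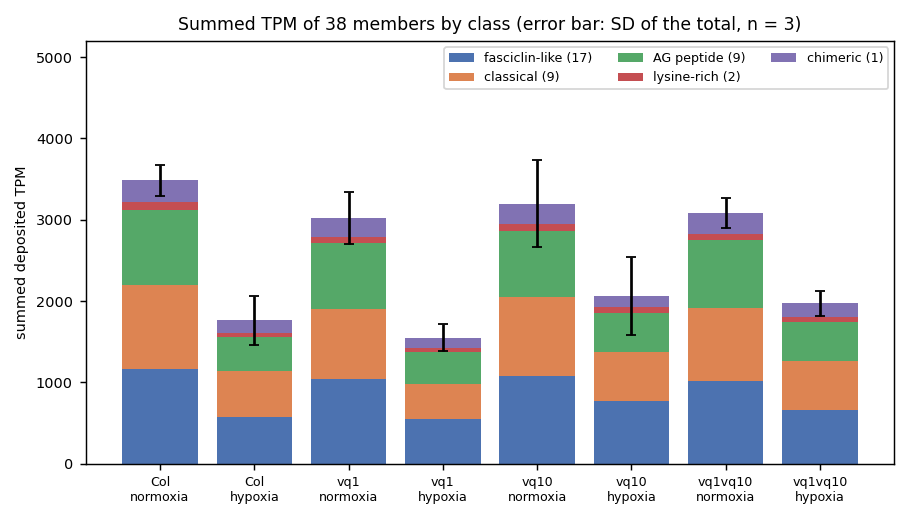
Summed deposited TPM of the 38 members (y axis, from 0) in the 8 groups (x axis), as the mean of 3 libraries, with bars stacked by class, and the SD of the total as the error bar. The sums run from 3016 to 3486 under normoxia and from 1551 to 2066 under hypoxia, and every class is smaller in the hypoxic bar.

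The upstream sequences of members with unlike changes are shown because their transcripts moved by very different amounts. Each is the 250 bases before the annotated gene start of TAIR10.1, read on the gene's strand, and capitals mark matches to the W-box letters TTGACC or TTGACT, the site of WRKY factors, or to TATAAA, on either strand. No match was found for AGP22, and the matches of AGP12 overlap.
AGP22 (chr5:21603319-21603568, plus strand): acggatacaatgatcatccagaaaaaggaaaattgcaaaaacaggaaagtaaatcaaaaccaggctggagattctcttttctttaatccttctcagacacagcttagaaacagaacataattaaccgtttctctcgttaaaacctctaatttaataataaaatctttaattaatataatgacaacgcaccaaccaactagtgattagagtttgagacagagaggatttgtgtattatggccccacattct
AGP3 (chr4:18581697-18581946, minus strand): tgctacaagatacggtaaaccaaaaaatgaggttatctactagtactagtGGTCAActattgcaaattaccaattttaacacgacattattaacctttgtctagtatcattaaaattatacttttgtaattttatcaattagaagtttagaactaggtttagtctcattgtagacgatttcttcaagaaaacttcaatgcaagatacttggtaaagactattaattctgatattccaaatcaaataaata
AGP12 (chr3:4408675-4408924, plus strand): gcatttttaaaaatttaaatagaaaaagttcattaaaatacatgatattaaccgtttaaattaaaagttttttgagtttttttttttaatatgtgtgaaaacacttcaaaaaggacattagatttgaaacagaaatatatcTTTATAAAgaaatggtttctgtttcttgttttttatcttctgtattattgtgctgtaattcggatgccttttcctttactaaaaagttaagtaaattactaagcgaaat
The W-box letters were in 8 of the 39 members' windows (20.5%, with FLA3, FLA9, FLA10, FLA15, AGP2, AGP3, AGP4 and AGP16) against 28.6% of 23928 genes. The G-box letters CACGTG were in 1, AGP2 (2.56% against 7.1%), and TATAAA in 17 (43.6% against 46.8%). These matches are letters in a window and describe no binding. The members are spread over 5 chromosomes, and the closest pair, FLA8 and AGP16, lies 273942 bases apart.

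Taken by genotype, hypoxia lowered 27 of 36 members in Col (19.9% of all genes lower), 30 in vq1 (16.5%), 13 in vq10 (18.2%) and 19 in vq1vq10 (15.7%). With all libraries it raised 0 of them in each genotype by edgeR, beside 21.9%, 19.1%, 19.5% and 17.7% of all genes. Median log2 changes were -0.75, -0.74, -0.33 and -0.52. Every hypoxic library lay below every normoxic one in 28 (22.8% of all genes), 31 (24.1%), 12 (24.4%) and 22 (23.2%) members. The members lower in all 4 genotypes numbered 12: AGP22, AGP3, AGP13, AGP7, AGP16, AGP14, AGP4, AGP21, AGP24, FLA2, FLA7 and FLA10. The share of all genes lower in all 4 is not given here. Of these members AGP4, AGP7, AGP21, AGP24, FLA2 and FLA10 each lost a call in some genotype when a single library was left out. The vq10 count became 8 without normoxia replicate 1, and the vq1vq10 count 9 and 10 without hypoxia replicates 1 and 2. With the 4 libraries that stand apart left out the counts were 24, 31, 14 and 24, beside 21.4%, 18.2%, 15.0% and 14.4% of the 20210 genes tested there.

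By class, the fasciclin-like genes lower in Col, vq1, vq10 and vq1vq10 numbered 14, 13, 3 and 7 of 15, and the AG peptides 8, 8, 6 and 8 of 9. These are counts of calls, and the test of whether a response differed from Col follows. The response comparisons all subtract the same Col libraries, so they are not independent of each other.

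No member's response to hypoxia was called different from Col by edgeR in vq1, vq10 or vq1vq10, or among the 4 genotypes jointly, and 0% of all 20110 genes were. At an unadjusted p under 0.05 the members numbered 1, 8 and 5, and 5 jointly. The share of all genes at that unadjusted p is not given here, so these counts are not read as a result about the members. DESeq2 called 0 members in each, beside 2 of all genes for vq1vq10 and 1 jointly. Without the libraries that stand apart edgeR again called 0 members, beside 0.307% of all genes (62) for vq1vq10 and 0 genes for the others, and the unadjusted counts were 4, 7 and 9, and 9 jointly. Single libraries moved these counts: that of vq10 became 3 without hypoxia replicate 2 and 14 without normoxia replicate 1 or without Col hypoxia replicate 2. That of vq1vq10 became 2 without its normoxia replicate 2, and the joint count 11 without vq10 normoxia replicate 1. The log2 response difference of vq10 from Col was above 0 in 30 of 36 members and in 15 of 15 fasciclin-like genes (median 0.41, against -0.01 over all genes). That of vq1vq10 was above 0 in 28 members and in 14 fasciclin-like genes (median 0.27). In vq1 it was above 0 in 17 members and 8 fasciclin-like genes (median 0.07). Without the libraries that stand apart the fasciclin-like medians were 0.35, 0.32 and 0.0, with 15, 12 and 8 above 0, for vq10, vq1vq10 and vq1. Of all 36 members 26, 25 and 18 were then above 0. In vq1 the count of 17 of 36 became 29 of 37 without Col hypoxia replicate 2. For vq10 the median over the members went from 0.38 to 0.13 without vq10 hypoxia replicate 2, with 26 of 37 above 0. The genes were measured in the same libraries and vary together, so such counts by sign are not independent. The share of all genes above 0 is not given here.

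FLA16 (AT2G35860, chromosome 2, 15059763 to 15062122), reported to act in secondary walls of the stem, had the smallest p. It was at 56.3, 58 and 54 CPM in normoxic and 42.6, 31 and 33.7 in hypoxic Col, and at 52.3, 53 and 48.1 against 44.4, 52.9 and 48.4 in vq10. The conditions were well apart in Col and overlapped in vq10. In vq1 FLA16 was at 46, 49.6 and 54.8 against 36.5, 33.4 and 38.4 CPM, and in vq1vq10 at 49.9, 48.9 and 43.6 against 40.1, 38.4 and 40.9. Its response differed from Col by 0.58 ± 0.14 in vq10 (95% interval 0.28 to 0.87, unadjusted p = 0.00048, edgeR adjusted p = 0.59) and by 0.40 ± 0.14 in vq1vq10 (0.1 to 0.69, adjusted p = 0.54). The joint test of the 4 genotypes gave FLA16 an adjusted p = 0.84.

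Other members with an unadjusted p under 0.05 for vq10 were AGP15 (response difference 0.95 ± 0.26), AGP18 (1.15 ± 0.38), FLA12 (0.86 ± 0.31), FLA15 (0.71 ± 0.24), FLA2 (0.69), FLA7 (0.51) and AGP12 (0.46), each with an edgeR adjusted p = 0.59. AGP15 was at 109, 121 and 123 CPM in normoxic and 57.1, 57.8 and 49.5 in hypoxic Col, and at 121, 84.3 and 94.8 against 64.8, 127 and 77.6 in vq10. The hypoxic vq10 value of 127 CPM came from replicate 2, which stands apart. That library was also the highest of hypoxic vq10 for AGP18, FLA12, FLA15, FLA2, FLA7 and AGP12. AGP18 was there at 40.1 CPM against 16.1 and 26.1, and FLA15 at 17.2 against 9.04 and 11.6. Without replicate 2, 3 of the 37 members then tested had an unadjusted p under 0.05 for vq10. In the vq1 comparison AGP5 had the smallest p (difference 1.96 ± 0.93, 95% interval 0.03 to 3.89, adjusted p = 1.0).

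**Figure D4:**
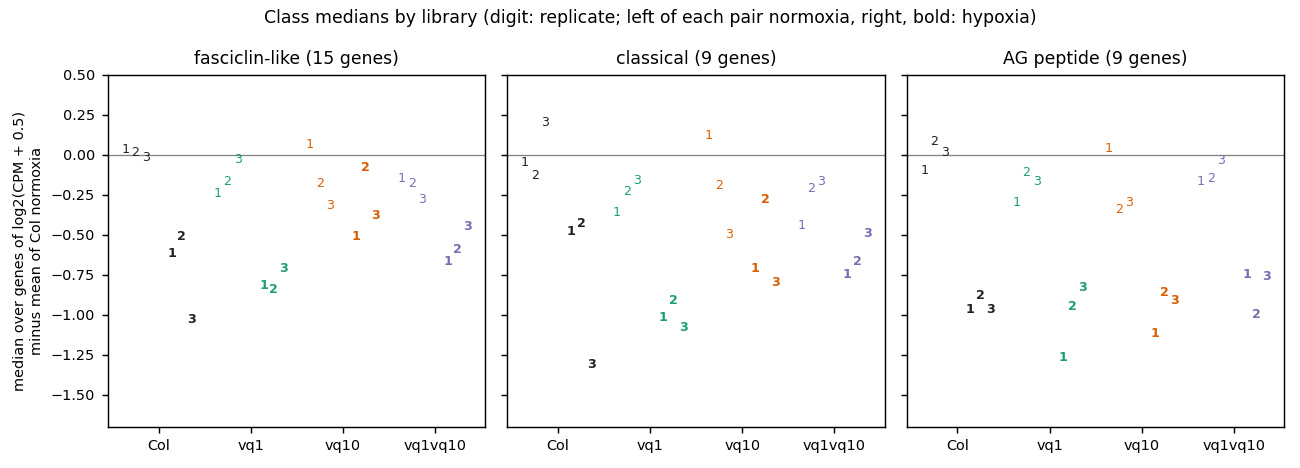
Median over the genes of a class of log2(CPM + 0.5) minus its mean in normoxic Col (y axis), for each library, with the replicate number as the symbol, normoxia left and hypoxia right (bold) for each genotype (x axis). Hypoxic fasciclin-like medians run from -1.03 to -0.51 in Col and from -0.51 to -0.08 in vq10, and Col replicate 3 and vq10 replicate 2 are the ends.

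Set directly against Col, no member was called by edgeR in any mutant in either condition. The share of all genes called was 0.0796%, 0.0597% and 0.0646% for vq1, vq10 and vq1vq10 under normoxia and 0.0845%, 0.0646% and 0.0845% under hypoxia. Without the libraries that stand apart the shares were 0.104%, 0.0742% and 0.099% under normoxia and 0.792%, 0.0693% and 2.88% under hypoxia. Without Col hypoxia replicate 3 alone, 0.675% of genes were called in hypoxic vq1 and 1.67% in hypoxic vq1vq10. Members at an unadjusted p under 0.05 numbered 2, 4 and 2 under normoxia and 3, 12 and 1 under hypoxia. Without the libraries that stand apart they numbered 7, 15 and 9 under normoxia and 10, 8 and 9 under hypoxia, so that hypoxic vq10 no longer had the most. The 12 of hypoxic vq10 became 5 without its replicate 2, and without Col hypoxia replicate 3 the hypoxic counts were 9, 7 and 7. The share of all genes at that unadjusted p is not given here, so these counts are not read as a result about the members. DESeq2 called 1 member, FLA16, in hypoxic vq10, beside 0.124% of all genes, and 0 elsewhere.

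In hypoxic vq10 FLA16 was higher than in Col by 0.44 ± 0.1 (95% interval 0.23 to 0.65) and its libraries did not overlap those of Col, yet the edgeR adjusted p was 0.17. It was 0.03 by DESeq2, and by edgeR 0.012 without Col hypoxia replicate 1, where the difference was 0.58. No other setting tried called FLA16 in this comparison. In hypoxic vq10 14 of the 15 fasciclin-like genes were above Col (median 0.36), and 12 with a median of 0.14 without the libraries that stand apart. Of all 36 members 25 were above Col (median 0.27), and 18 with a median of -0.03 without those libraries. Without vq10 hypoxia replicate 2 alone, 19 of the 37 members then tested were above Col (median 0.02). AGP5 had the smallest p in hypoxic vq1vq10, 1.93 ± 0.66 above Col (0.57 to 3.29, edgeR adjusted p = 0.39), with 0.85, 4.39 and 1.61 CPM against 0.68, 0.66 and 0.46. One library, replicate 2, was far above its group.

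Under normoxia AGP3 had the smallest p in vq10, -0.93 ± 0.29 from Col (95% interval -1.53 to -0.32, edgeR adjusted p = 1.0). Without vq10 normoxia replicate 1 and the other libraries that stand apart its difference was -1.39 with an adjusted p = 0.0066, the 1 member called in that comparison beside 0.0742% of all genes. In normoxic vq1 it was FLA15 (-0.41 ± 0.17, -0.76 to -0.07, adjusted p = 0.61), at 10.8, 12.4 and 11.2 CPM against 15.9, 16.6 and 13.4 in Col. FLA16 was lowest in p in normoxic vq1vq10 (-0.24 ± 0.1, -0.44 to -0.04, adjusted p = 1.0).

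In hypoxic vq1 AGP10 had the smallest p (-0.62 ± 0.28, 95% interval -1.2 to -0.05, edgeR adjusted p = 0.88). It was at 36.2, 21.6 and 25 CPM there and at 53.4, 53.1 and 21.3 in hypoxic Col, where replicate 3 was low and the groups overlapped. Without the libraries that stand apart, Col hypoxia replicate 3 among them, 4 members were called lower in hypoxic vq1: AGP9 (-0.98, adjusted p = 0.021), AGP10 (-0.95, 0.039), AGP26 (-0.87, 0.03) and AGP31 (-0.68, 0.035). In that fit 0.317% of all genes were called lower and 0.792% in either direction. AGP26 was also called without Col hypoxia replicate 3 alone (adjusted p = 0.043).

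Root hairs are the tip-growing cells of the root epidermis. All 7 of their markers checked (EXPA7, EXPA18, RHD6, RSL4, COBL9, PRP3 and LRX1) fell under hypoxia, with a median log2 change of -2.6. Their summed level was 30.6 to 89.6 CPM in the normoxic and 7.04 to 19.3 in the hypoxic libraries, and RSL4 alone was at 0 in single hypoxic libraries of vq1 and vq10. Among the other root markers 2 of 3 tested fell, with a sum of 90.1 to 132 CPM under normoxia and 52.8 to 142 under hypoxia, and NRT2.1 had 0 reads in hypoxic Col, vq1 and vq1vq10. The 5 shoot markers rose, from sums of 30382 to 38803 CPM to 47972 to 67385. Averaged over the genotypes, edgeR called 33.1% of all genes lower and 31.7% higher. The part of these markers in the members' changes was not tested.

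Within normoxic vq10 the root hair sum was 89.6, 40.2 and 30.6 CPM in replicates 1 to 3, beside 22.4, 12.3 and 8.87 CPM for AGP3. In normoxic vq1vq10 it was 88.2, 50 and 40 CPM, beside 28.9, 21.8 and 14.5 for AGP3. Deviations of log2 CPM from the group means, over 24 libraries in which all genes share the same RNA and depth, correlated with those of the root hair markers at r = 0.81 for AGP3, 0.78 for FLA15, 0.70 for AGP22 and 0.67 for FLA6. They were at 0.02 for FLA8, -0.03 for AGP9 and -0.42 for FLA11. Replicate 1 of normoxic vq10 and of normoxic vq1vq10, with the highest root hair sum of its group, stands apart. Values of r without the libraries that stand apart, and their spread over all genes, are not given here. These are descriptions without a test.

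**Figure D5:**
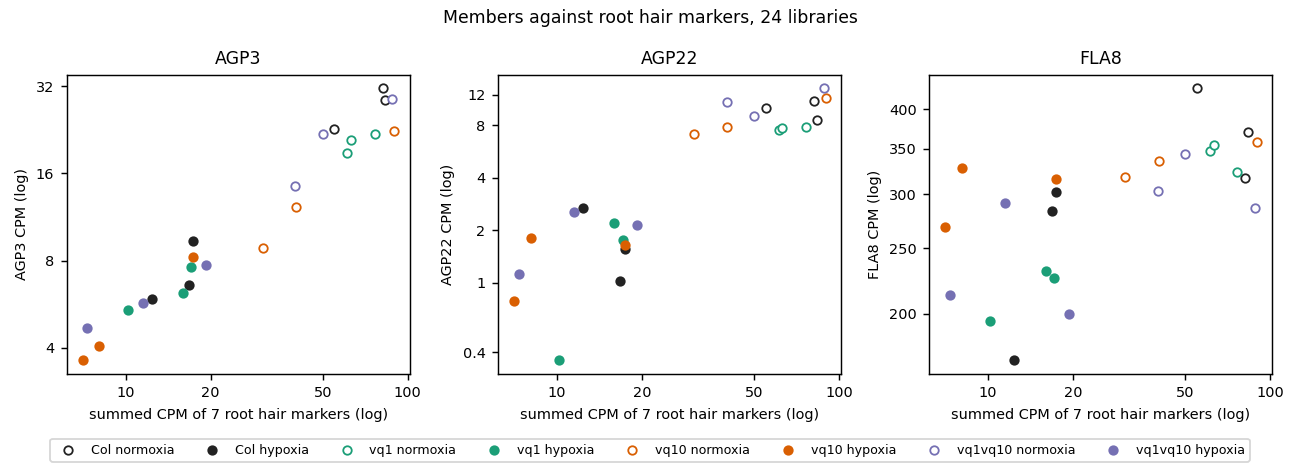
CPM of AGP3, AGP22 and FLA8 (y axes, log) against the summed CPM of 7 root hair markers (x axes, log) in 24 libraries, open for normoxia and filled for hypoxia, coloured by genotype. Within the 3 libraries of normoxic vq10, AGP3 runs from 8.87 to 22.4 CPM and FLA8 from 318 to 358 CPM. Both, and the marker sum, are highest in replicate 1, which stands apart.

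Members also varied together within groups. Over 630 pairs the median r of their deviations was 0.37 (86.0% above 0), beside 0.0 and 49.9% over pairs drawn from all 16567 well-expressed genes (average log2 CPM 1 or more). AGP9 and AGP31 were at r = 0.91, FLA2 and FLA9 at 0.90, AGP4 and AGP9 at 0.89, and AGP12 and AGP21 at 0.87. AGP13 and AGP14, close in sequence, were at 0.81. FLA11 and AGP24 were the most opposed, at -0.71.

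The enzymes that build AGP chains are Golgi proteins. Of 17 tested glycosylation genes 11 fell, 1 rose and 5 were not called, with a median of -0.28. Of all genes 33.1% were called lower and 31.7% higher. FUT6 and FUT4, fucosyltransferases of AGPs, fell by 1.18 ± 0.13 each, GALT29A, a galactosyltransferase of the side chains, by 1.12 ± 0.09, and the glucuronosyltransferase genes GLCAT14A and GLCAT14C by 0.78 ± 0.08 and 0.66 ± 0.08. Of the galactosyltransferases that put the first sugar on hydroxyproline, HPGT3 (-0.26 ± 0.09), GALT5 (-0.48 ± 0.06), GALT2 (-0.44 ± 0.11) and GALT6 (-0.23 ± 0.09) fell. GALT4, of the same group, rose by 0.37 ± 0.08, and HPGT1 (-0.1 ± 0.06), HPGT2 (0 ± 0.07) and GALT3 (0.07 ± 0.04) were not called.

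Prolyl 4-hydroxylases use molecular oxygen to make the hydroxyproline to which the sugars are attached. Of 6 tested, P4H7 rose by 1.46 ± 0.09 and P4H3 by 0.94 ± 0.1. P4H5, known from root hair growth, fell by 0.63 ± 0.08, P4H2 by 0.42 ± 0.06 and P4H4 by 0.12 ± 0.04, and P4H1 was at -0.01 ± 0.04. Of 5 genes of GPI anchor synthesis and remodelling 3 fell, among them PNT1 by 0.63 ± 0.09, and SETH2 rose by 0.25 ± 0.04. Of 6 tested AGP genes outside the 39, 3 fell. AGP30, a root AGP of the AGP31 kind, fell by 1.64 ± 0.19, AGP25 by 0.86 ± 0.11 and the lysine-rich AGP19 by 0.64 ± 0.15. Beside the counts of these short lists stand the same 33.1% of all genes lower and 31.7% higher.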

How the data were processed

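The 24 RNA-seq libraries of whole seedlings fall into 8 groups of 3 by their labels. Per the submitters' processing notes, HISAT2 2.0.4, DESeq2 and the build TAIR10 were used, with no role stated. The sources used here do not give the read counter, its use of strand or a filter. Per the file headers, FPKM, TPM and read counts are listed for 23929 genes. The deposited read counts are expected counts, since 525 to 581 genes per library were not whole, and they were rounded. The deposited TPM served for levels between genes. The deposited FPKM were not used for printed values.

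Counts were fitted with edgeR 4.0.16 (R 4.3.3; TMM factors, filterByExpr, a mean per group, quasi-likelihood F test over all 24 libraries). A gene was called at an adjusted p under 0.05 (Benjamini-Hochberg, 20110 genes). The standard error is the size of the log2 change divided by the root of F, and CPM use the TMM library sizes. The fit was tested on simulated data. Alternatives were RLE factors, no low-count filter, DESeq2 1.42.0, a block for the replicate number, a fit of only the libraries compared, and each library left out in turn. Leaving out the 4 libraries that stand apart, and a block for the number within each condition, were chosen after seeing the data.

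The members and the lists of other genes were chosen with earlier results of these data known. Members given in full were the 6 with the largest fall among those called whose log2 CPM averaged 1 or more, and the 5 with the highest mean TPM. The one with the smallest p in each comparison of mutants was named too. Of these FLA16 and AGP3 are given in full, and AGP5, AGP10 and FLA15 in only some of the groups. Others named were chosen after their values were seen. Positions and sequences are from TAIR10.1 of RefSeq, matched by locus identifier. Depth gives counting error only.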

Additional observations from a re-analysis of the deposited data

How the results depend on the processing

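Of 7627 values of single members under the alternatives, 103 lost the call and 51 gained it. In the other 7473 the call did not change, and among these 400 values that were not called changed sign, as FLA6 in vq10 did. No called value changed sign (0 values). Leaving out single libraries gave 31 to 32 members called for the mean of the genotypes, 24 to 30 in Col, 23 to 26 in vq1, 8 to 17 in vq10 and 9 to 20 in vq1vq10. Between mutants and Col it gave 0 to 1 in hypoxic vq10 and in hypoxic vq1 and 0 in the other comparisons and responses. With the libraries that stand apart left out, 4 members were called in hypoxic vq1 (0.792% of all genes) and 1 in normoxic vq10 (0.0742%), and DESeq2 called 1 in hypoxic vq10 (0.124%). Members called higher under hypoxia were AGP10 in vq1vq10 when only the libraries compared were fitted, which called 26 members, and AGP12 in vq10 without hypoxia replicate 1. The cause of these shifts was not tested.

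Same-numbered libraries of one condition and different genotypes had a median residual r of 0.12 (20 of 36 pairs over 0.1), against -0.06 (9 of 72) for differently numbered ones, so numbers deviated together within a condition. Same-numbered libraries of a genotype across conditions were at -0.09 (0 of 12). The labels name no shared batch and not every pair passed 0.1, so the unpaired fit was kept. With the replicate number as a block over both conditions, 31, 27, 29, 14 and 18 members were called for the mean, Col, vq1, vq10 and vq1vq10. A block within each condition, added after seeing the data, called 0 members by edgeR in each comparison of mutants and each response, with 1 to 12 at an unadjusted p under 0.05. Low reads limit AGP5 and FLA6.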
